A study of Homo sapiens with 11 samples.

Results

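The HOX gene clusters are described here by their histone acetylation and by the steroid receptor sites around them in Ishikawa, a cell line from a human endometrial adenocarcinoma. The regions were selected on position: every peak that overlapped the HOXA, HOXB, HOXC or HOXD window of the hg19 genome was taken, whatever its height. The windows were chr7:27130000-27250000 for HOXA, chr17:46600000-46810000 for HOXB, chr12:54330000-54450000 for HOXC and chr2:176940000-177060000 for HOXD, which is 570 kb in all and holds 38 member genes. Of 90458 peaks in 8 deposited lists, 106 overlapped a window: 65 at HOXB, 27 at HOXA, 14 at HOXD and 0 at HOXC. All 106 were H3K27ac peaks, that is, of histone H3 with an acetyl group on lysine 27, which marks promoters and enhancers in use, and none was a receptor site. The windows were proposed with the peak values of these same lists in view, so the values below are a description and no test was made on them.

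Cells had received the vehicle DMSO, 10 nM estradiol, which activates the estrogen receptor (ER), 100 nM dexamethasone, a synthetic glucocorticoid that activates the glucocorticoid receptor (GR), or both hormones, called the combination here. H3K27ac was mapped by chromatin immunoprecipitation and sequencing with each of the 4 treatments for 8 h, ER with estradiol and with the combination for 1 h, and GR with dexamethasone and with the combination for 1 h. The cells are 1 tumour-derived line, and the lists were not checked against marker genes because no hg19 annotation was used here. Each group held 1 library, so no value below has a spread between replicates, and an interval given for a share covers counting error only. Such an interval also treats neighbouring peaks as independent, which pieces of 1 acetylated stretch are not.

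HOX genes encode homeodomain transcription factors that give cells along the body axis their positional identity. They lie in clusters whose gene order follows the order of their expression along that axis, and silent clusters are typically held by Polycomb repression while active stretches carry marks such as H3K27ac. In the female reproductive tract, HOXA9, HOXA10 and HOXA11 pattern the oviduct, uterus and cervix during development, and HOXA10 and HOXA11 act again in the cycling adult endometrium. In the RefSeq order (GRCh38.p14), HOXA runs from HOXA2 at its low-coordinate end to HOXA13, and HOXB runs from HOXB1 to HOXB13. HOXC and HOXD run the other way, HOXC from HOXC13 at its low-coordinate end and HOXD from HOXD13 to HOXD1. Sorted by start, HOXC6 comes last in HOXC, but HOXC4 and HOXC5 extend beyond it. RefSeq gives another build than the peak lists, so no peak is assigned to a single gene here, and peaks are named by their hg19 positions.

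The clusters also encode microRNAs, short RNAs that pair with messenger RNAs through a seed at their 5′ end. The miR-196 sequences are shown because the same seed is encoded in clusters that differed widely in H3K27ac. Those of miR-10a and miR-615 are shown as further examples from HOXB and HOXC, with other seeds. The sequences are RefSeq's (GRCh38.p14), 5′ to 3′, with the seed in capitals.
hsa-miR-196a-5p, from MIR196A1 between HOXB9 and HOXB13 and from MIR196A2 between HOXC10 and HOXC9: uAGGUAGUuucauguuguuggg
hsa-miR-196b-5p, from MIR196B between HOXA10 and HOXA9: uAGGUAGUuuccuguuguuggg
hsa-miR-10a-5p, from MIR10A within HOXB3, between HOXB4 and HOXB5: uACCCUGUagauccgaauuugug
hsa-miR-615-3p, from MIR615 within HOXC4 and HOXC5: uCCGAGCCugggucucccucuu
The miR-196 sequences share their seed, and their genes lie in HOXB, HOXC and HOXA. The mature miR-196a-5p sequence has a gene in HOXB, the most acetylated window of the 4, and in HOXC, whose window held no peak. This compares whole windows, and the part of the HOXB window on the HOXB13 side held no peak either. Whether a microRNA gene lies under an H3K27ac peak was not determined, because the builds differ, and RNA was not measured in these lists.

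Acetylation was concentrated in HOXB. In vehicle, H3K27ac peaks covered 43008 bp of HOXB, 9213 bp of HOXA, 1943 bp of HOXD and 0 bp of HOXC. As a share of the window this was 20.5% for HOXB, 7.68% for HOXA and 1.62% for HOXD, beside 0.593% over all chromosomes. Among 14415 windows of 210 kb tiled over the genome, 9 (0.0624%) held at least as many acetylated bases as HOXB in vehicle. For HOXA the same share was 1.33% of 25237 tiles of 120 kb, and for HOXD it was 9.86%. HOXB and HOXA were thus among the densely acetylated stretches of the vehicle list, and HOXD less so. Most tiles were empty, 70.9% of those of 120 kb in vehicle, and the others had a median of 1291 bp. HOXD was above the median of nonempty tiles in vehicle and with estradiol (4409 against 1581 bp). It was below that median with dexamethasone (637 against 1051 bp) and with the combination (959 against 1401 bp).

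**Figure D1:**
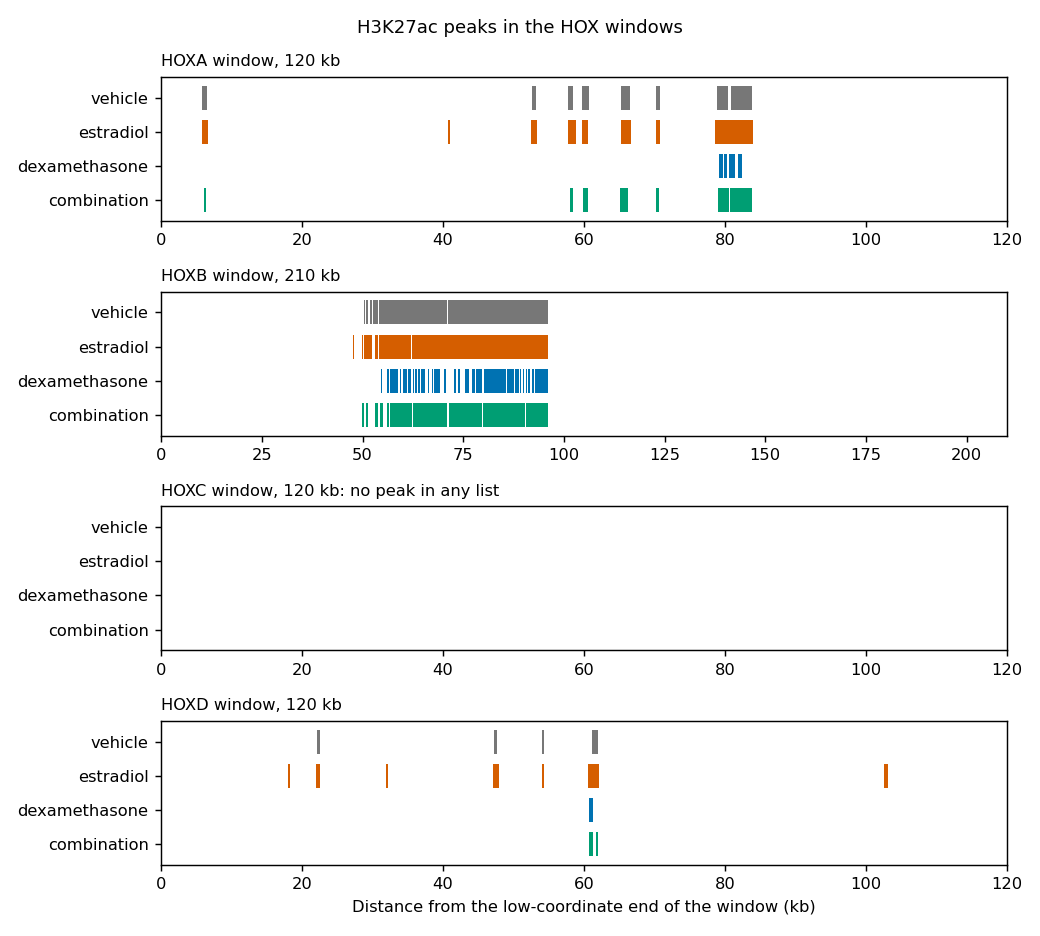
H3K27ac peaks (coloured bars) in the HOXA, HOXB, HOXC and HOXD windows by distance from the low-coordinate end in kb, with 1 row for each of the 4 treatments. HOXB carries 1 dense stretch, called as 32 peaks with dexamethasone and 8 to 13 in the other lists, HOXA and HOXD carry scattered peaks, and HOXC is empty.

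In HOXB, the acetylated bases lay in 1 stretch of the window, called the HOXB block here. With peaks closer than 1 kb joined into domains, the 13 vehicle peaks of HOXB made 1 domain of 45697 bp at chr17:46650272-46695968, of which 94.1% lay under a peak. It was the widest of 14078 vehicle domains. With estradiol the window held 2 domains, of which the widest was 46185 bp and ranked 1 of 16429. With the combination it also held 2, of which the widest was 42874 bp and ranked 1 of 13769. With dexamethasone the window held 4 domains, of which the widest was 20401 bp and ranked 17 of 8654. With gaps of up to 3 kb joined, which was chosen after seeing the data, the ranks by width were 2 in vehicle, 1 with estradiol, 3 with dexamethasone and 1 with both hormones. The block was then 1 domain in each list, and the splits at 1 kb rest on gaps of up to 1811 bp with estradiol, 2046 bp with dexamethasone and 1704 bp with the combination.

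**Figure D2:**
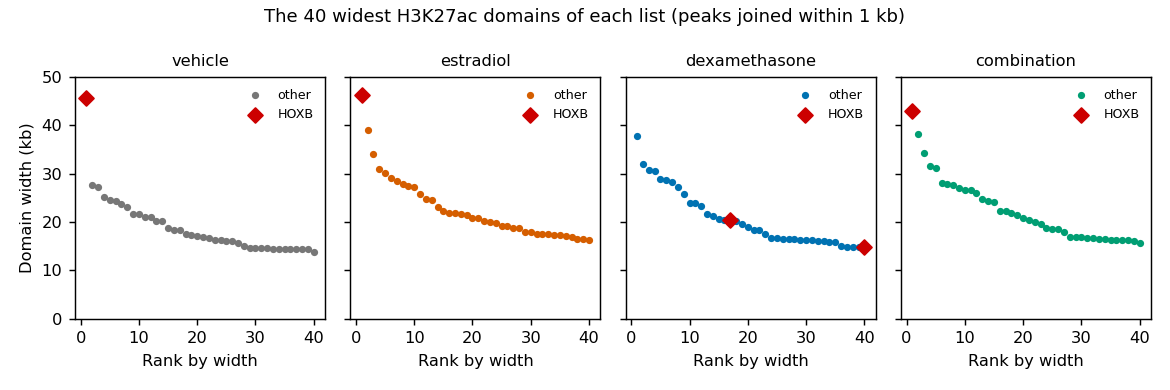
Width in kb of the 40 widest H3K27ac domains of each list against their rank, with peaks closer than 1 kb joined and HOXB domains as red diamonds. HOXB ranks 1 in vehicle, with estradiol and with the combination, and 17 with dexamethasone, where its domains are narrower.

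The high-coordinate end of HOXB acetylation was nearly fixed. The last acetylated base fell between 46695953 and 46696001 in the 4 lists, a range of 48 bp. The first acetylated base of the window, towards HOXB1 in the RefSeq order, varied by 6897 bp, from 46647666 with estradiol to 46654563 with dexamethasone. The widest domain joined within 1 kb began at 46650272 in vehicle, 46649817 with estradiol, 46675553 with dexamethasone and 46653122 with both hormones. Beyond the high-coordinate end the rest of the window, on the HOXB13 side, held no peak in any list. The next H3K27ac peak outside the window lay 160 kb above it in vehicle, 159 kb with estradiol, 528 kb with dexamethasone and 160 kb with the combination, so the block stood alone in its neighbourhood.

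Every list but that of dexamethasone held peaks over 5 kb in the block. The widest HOXB peak was 14210 bp in vehicle, which ranked 4 of 21120 peaks by width. It was 24714 bp with estradiol at chr17:46671288-46696001, which ranked 3 of 23888. With the combination it was 10340 bp and ranked 47 of 20873, and with dexamethasone 3995 bp and ranked 336 of 15192. Peaks over 5 kb numbered 4 in vehicle, 3 with estradiol, 0 with dexamethasone and 3 with both hormones. By the authors' −log10 q, the strongest HOXB peak stood at the 94.1 percentile of the vehicle list, at 96.3 with estradiol, at 91.6 with dexamethasone and at 94.5 with the combination. HOXB peaks thus stood out more by their width than by their significance.

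With dexamethasone the same stretch was called in more and shorter pieces. HOXB held 13 peaks in vehicle, 8 with estradiol, 32 with dexamethasone and 12 with both hormones, and the bases between its peaks summed to 2689, 3500, 14416 and 5089 bp in the same order. The widest vehicle peak, chr17:46671334-46685543, was covered to 100% by 1 estradiol peak, to 65.4% by 8 dexamethasone peaks and to 97.4% by 2 combination peaks. The next widest, chr17:46662405-46671096 (8692 bp), was covered to 100%, 56% and 99.3% in the same order, with 9 peaks in the dexamethasone list. The third, chr17:46690539-46695968 (5430 bp) at the fixed end of the block, was covered to 100%, 81.3% and 97.3%. All 3 kept peaks with every hormone, and their dexamethasone coverage was the lowest of the 3 treatments.

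The other wide domains of the vehicle list show how HOXB compared. Of 14 vehicle domains of at least 20 kb, HOXB was the widest, and the other 13 were 27.6 kb or less. Dexamethasone peaks covered 62.7% of the vehicle-acetylated bases of the HOXB domain, below all 13 others, which ranged from 64.4% to 98.3% with a median of 93.4%. The domains next in that order, at 64.4% and 65.1%, lay close to HOXB. With estradiol HOXB stood at 98.6% (others 86.9% to 100%, median 99.3%), and with the combination at 93.6% (others 86.1% to 99.9%, median 96.4%), within the range of the others both times. The dexamethasone list also held more peaks in the HOXB domain (32) than in any of the others (1 to 22), in a domain that is wider than the others.

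Depth and duplicates also differed between the libraries. The H3K27ac libraries had 18508574 usable tags in vehicle, 10852521 with estradiol, 9034395 with dexamethasone and 9657258 with both hormones, and duplicate shares of 18%, 19%, 33% and 22%. The dexamethasone library was the shallowest, had the most duplicates and gave the fewest peaks (15192, against 20873 to 23888). The combination library was only slightly deeper and gave 20873 peaks. The part of depth and duplicates in the gaps and losses described for dexamethasone was not tested.

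HOXA carried separate peaks spread along the window. In vehicle its 8 peaks were 562 to 3052 bp wide, beside a median of 547 bp over the list, and spread over 77994 bp. Merged over the 4 lists they made 8 regions, of which 1 was in all 4 lists, 5 in 3 lists, 1 in 2 and 1 in 1. The region in all 4 was chr7:27208640-27213932, the one at the highest coordinates. It held 4559 acetylated bp in vehicle, 5293 bp with estradiol, 2508 bp with dexamethasone and 4667 bp with the combination. Its widest peak stood at the 96.8 percentile of the vehicle list by width, and at 95.5 with the combination. With estradiol it was 1 peak at the 98.6 percentile by width and the 92.7 percentile by the authors' −log10 q, and with dexamethasone it was 4 peaks. Those 4 were all the acetylation called in HOXA with dexamethasone.

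The vehicle peaks of HOXA that had no dexamethasone peak numbered 6 of 8. The strongest 3 by the authors' −log10 q were chr7:27195231-27196559 (56.3), chr7:27200189-27200750 (47.8) and chr7:27189780-27190648 (44.4). Each of them was called with estradiol and with the combination. The peak at chr7:27182642-27183229 (588 bp) was called in vehicle and with estradiol, and in neither list with dexamethasone. The estradiol list held 1 further peak of 278 bp at chr7:27170652-27170929, which no other list held.

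HOXD held the fewest peaks of the acetylated windows. In vehicle 4 peaks of 257 to 881 bp covered 1943 bp, and the strongest stood at the 42.9 percentile of the list by the authors' −log10 q. Estradiol gave 7 peaks over 4409 bp, dexamethasone 1 peak of 637 bp and the combination 2 peaks over 959 bp. The 3 peaks without a vehicle peak were chr2:176957985-176958301, chr2:176971909-176972189 and chr2:177042570-177043168, all in the estradiol list only. Their −log10 q values were 11, 15.3 and 16.4, beside a median of 34.5 over the estradiol list. One region, chr2:177000501-177002083, was called in all 4 lists, with 881 acetylated bp in vehicle, 1583 bp with estradiol, 637 bp with dexamethasone and 959 bp with the combination. Within its list this region's peak stood at the 33.4 percentile by −log10 q in vehicle, at 75.4 with estradiol and at 69.8 with dexamethasone. Its 2 combination peaks stood at 52.4 and 1.07. The dexamethasone peak covered 212 bp (24.1%) of the vehicle peak, chr2:177001116-177001996. Estradiol covered 100% of that vehicle peak and the combination 58.8%. The vehicle peaks chr2:176962139-176962520, chr2:176987176-176987598 and chr2:176994071-176994327 were also called with estradiol, and with neither dexamethasone nor the combination.

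HOXC, which encodes HOXC4 to HOXC13 and the long noncoding RNA HOTAIR, held no peak in any of the 8 lists. The stretch without H3K27ac around it was 513 kb in vehicle, 461 kb with estradiol, 603 kb with dexamethasone and 583 kb with the combination. An empty window of this length was common: 65.5% of 25237 tiles of 120 kb held no H3K27ac peak in any of the 4 lists. No peak means only that no stretch passed the authors' p cutoff.

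**Figure D3:**
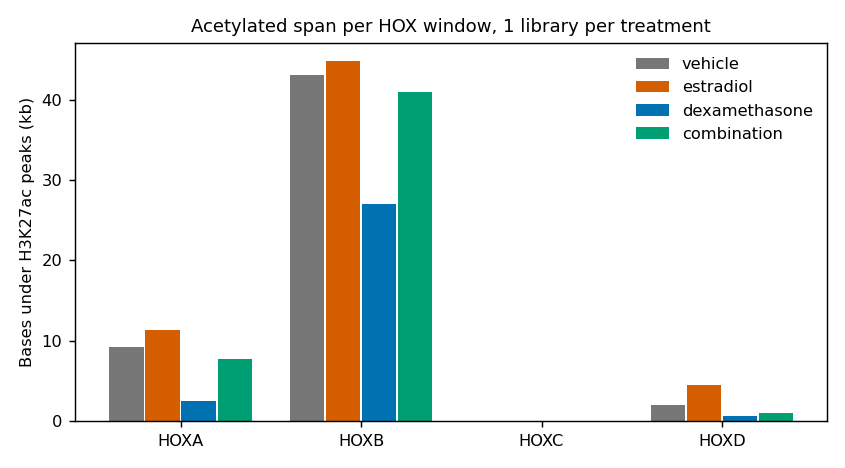
Bases under H3K27ac peaks in kb for each HOX window (x axis) and treatment (colour), with 1 library for each bar and no error bars. HOXB is tallest throughout, at 27 to 44.8 kb, and HOXC is 0.

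Across the windows, the acetylated span was wider than in vehicle with estradiol and narrower with dexamethasone. The span of the 4 windows was 54164 bp in vehicle, 60575 bp with estradiol, 30120 bp with dexamethasone and 49611 bp with the combination, or 9.5%, 10.6%, 5.28% and 8.7% of their length. As a ratio to vehicle this was 1.12, 0.556 and 0.916, beside 1.35, 0.69 and 1.13 over all chromosomes. The ratio of the HOX windows with estradiol was thus below that of the list as a whole, and with the combination they stood below vehicle where the whole list stood above it. By cluster the ratio with estradiol was 1.04 at HOXB, 1.23 at HOXA and 2.27 at HOXD. With dexamethasone it was 0.627 at HOXB, 0.272 at HOXA and 0.328 at HOXD, and with the combination 0.953, 0.834 and 0.494. With all lists cut to the 15192 peaks of the shortest, that of dexamethasone, the HOXD span was 1263 bp in vehicle and 2780 bp with estradiol, beside the same 637 bp with dexamethasone.

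Counted by peak, the HOX windows were near the background of the whole lists. With dexamethasone, 15 of 25 vehicle peaks had no overlapping peak (60%, exact Clopper-Pearson interval 38.7% to 78.9%), beside 53.3% of all vehicle peaks. With the combination 7 of 25 were missing (28%, 12.1% to 49.4%), beside 22.5%. With estradiol 1 of 25 was missing (4%, 0.101% to 20.4%), beside 6.93%. That 1 peak was chr17:46652646-46653021 in HOXB, which was called in vehicle only. Of the 25 vehicle peaks, 13 belonged to the HOXB block, and peaks of 1 block are not independent. The intervals may thus be too narrow, and the nearness to the background is a description.

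The missing peaks were mostly weak ones at HOXB and included stronger ones at HOXA. When the vehicle list was split into 4 classes by the authors' −log10 q, 22% of peaks in the strongest class had no dexamethasone peak, and 68.5% in the weakest. None of the 6 HOXB peaks in the strongest class was missing with dexamethasone, and 1 of the 2 HOXA peaks there was. Of HOXB, 6 of 13 peaks were missing, and the strongest 3 of these were chr17:46655458-46655792 (335 bp), chr17:46651894-46652308 (415 bp) and chr17:46653206-46653822 (617 bp). All 3 lay in the low-coordinate part of the block. The last of these in position, chr17:46655458-46655792, lay above the first dexamethasone peak of the window, and the other two below it. With the combination, chr17:46651894-46652308, chr17:46652646-46653021 and chr17:46655458-46655792 were missing.

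With 1 bp of overlap as the rule, peaks without a vehicle peak were found with estradiol and in no other hormone list. Of 23 estradiol peaks 6 had no vehicle peak (26.1%, 10.2% to 48.4%), beside 26.9% of the whole estradiol list. Of 37 dexamethasone peaks 0 had no vehicle peak (interval up to 9.49%), beside 24.8%, and of 21 combination peaks 0 (interval up to 16.1%), beside 23.2%. These counts are not read against the background, since 32 of the 37 dexamethasone peaks and 12 of the 21 combination peaks overlapped the HOXB block that was acetylated in vehicle, and peaks of 1 block are not independent. When at least 50% of the hormone peak had to overlap, the shares without a vehicle peak were 30.4% with estradiol, 2.7% with dexamethasone and 9.52% with both hormones. By the 1 bp rule, the estradiol peaks without a vehicle peak were 3 at HOXD, 2 at HOXB (chr17:46647666-46648005 and chr17:46649817-46650094) and 1 at HOXA.

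**Figure D4:**
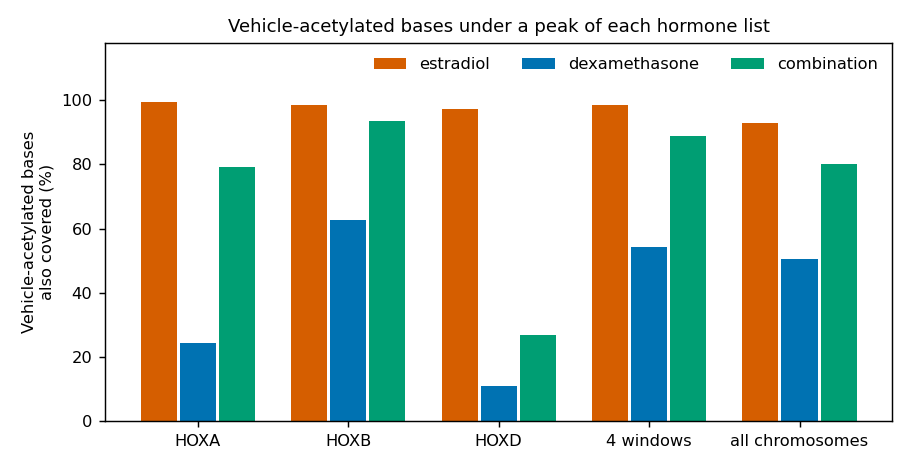
Percent of vehicle-acetylated bases that lay under a peak of each hormone list (colour) in HOXA, HOXB, HOXD, the 4 windows together and all chromosomes. Dexamethasone covers 62.7% at HOXB, 24.4% at HOXA and 10.9% at HOXD, around the 50.6% of all chromosomes.

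Counted by base, the clusters lay on either side of the share over all chromosomes with dexamethasone and with the combination. Dexamethasone peaks covered 62.7% of the vehicle-acetylated bases of HOXB, 24.4% of those of HOXA and 10.9% of those of HOXD, beside 50.6% over all chromosomes. The combination covered 93.6%, 79.3% and 26.7%, beside 80.1%. Estradiol covered 98.6%, 99.4% and 97.3%, beside 92.8%. With the lists made equally long by keeping the 15192 peaks of highest −log10 q in each, dexamethasone covered 57.8% of the HOX bases and 54.2% of all bases, and the combination 90% and 79.8%.

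Set against estradiol alone, the combination covered most of HOXB and little of HOXD. Of the estradiol-acetylated bases, 90.6% at HOXB, 66.7% at HOXA and 21.8% at HOXD lay under a combination peak, beside 70.9% over all chromosomes. By peak, 1 of 8 estradiol peaks at HOXB, 2 of 8 at HOXA and 6 of 7 at HOXD had no combination peak. Together this was 9 of 23 (39.1%, 19.7% to 61.5%), beside 30.7% of the whole estradiol list.

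Neither receptor had a site in a HOX window. At the mean rate over all chromosomes, 570 kb would hold 0.67 ER sites with estradiol, 0.448 ER sites with the combination, 0.341 GR sites with dexamethasone and 0.306 GR sites with the combination. A count of 0 is thus near what this length holds on average. Acetylated stretches held more sites: the rate was 73 ER sites of the estradiol list and 37.6 GR sites of the dexamethasone list per Mb of vehicle-acetylated bases. At these rates the 54164 acetylated bp of the HOX windows in vehicle would hold 3.95 ER and 2.04 GR sites, against 0 called. Adjacent sites are not independent, and no test was made of this difference.

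Among the 14 vehicle domains of at least 20 kb, 10 of the 13 other than HOXB held a site of at least 1 receptor list and 3 held none. Summed over the 4 receptor lists, the other 13 domains held 0 to 13 sites with a median of 4. HOXB, the widest, held 0.

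**Figure D5:**
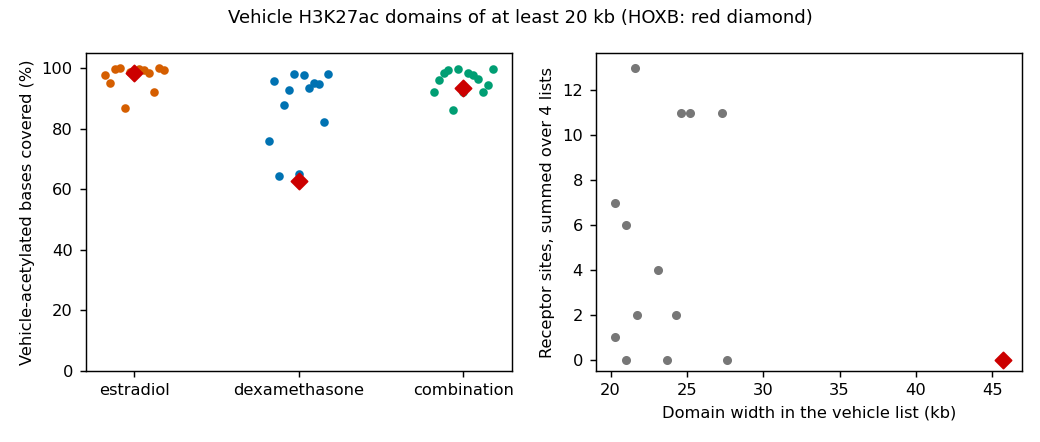
The 14 vehicle H3K27ac domains of at least 20 kb, with HOXB as a red diamond. The left panel shows the percent of vehicle-acetylated bases covered by each hormone list, where HOXB is lowest with dexamethasone at 62.7%, and the right panel shows receptor sites summed over 4 lists against domain width in kb, where HOXB is widest at 45.7 kb and has 0 sites.

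The nearest receptor site to any window was a GR site below HOXB. It lay at chr17:46561299-46561501 with dexamethasone and at chr17:46561306-46561480 with the combination, 38.5 kb below the window in both. It was among the stronger GR sites, with a fold enrichment of 39.3 and rank 119 of 1815 by the authors' −log10 q with dexamethasone, and a fold of 28.6 and rank 198 of 1628 with the combination. No H3K27ac peak of any treatment overlapped it. The nearest ER site to HOXB was chr17:47049865-47049980, 240 kb above the window with estradiol. The nearest ER site lay 486 kb from HOXA, 577 kb from HOXC and 821 kb from HOXD with estradiol, and the nearest GR site with dexamethasone lay 1899 kb, 886 kb and 1238 kb away.

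The promoters of the HOX genes were searched for receptor motifs, since no receptor site was called near them. RefSeq (GRCh38.p14) gave 27 promoters of 300 bases around a start, for 20 of the 38 genes: 9 of HOXA, 8 of HOXD, 2 of HOXC that share a start (HOXC4 and HOXC5) and HOXB1 alone for HOXB. They held a median of 22 CG dinucleotides, beside 14 over 35116 promoters of the same length. The ER core motif AGGTCA, searched on both strands, was in 0 of the 27, beside 13.8% of all promoters. The GR core motif AGAACA, searched likewise, was in 5 (HOXA3, HOXA9, HOXA11, HOXC4 and HOXC5), beside 14.8% of all promoters. HOXC4 and HOXC5 have the same 300 bases, so their match is counted for both. HOXA3 alone gave 7 of the 27 promoters, through its separate starts. A full element, GGTCANNNTGACC for ER or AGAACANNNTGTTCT for GR, was in 0 of the 27, beside 0.057% and 0.00285% of all promoters. AGAACA forms either end of the full GR element. A match is only these letters and not a site, and no match says nothing beyond this window.

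The promoters of HOXA11, a uterine patterning gene, and of HOXC4 are printed because they carry the GR motif in windows where no GR site was called. Capitals mark AGAACA, and both are written 5′ to 3′ on the strand of the gene.
HOXA11, chr7:27185183-27185482, minus strand, GRCh38.p14: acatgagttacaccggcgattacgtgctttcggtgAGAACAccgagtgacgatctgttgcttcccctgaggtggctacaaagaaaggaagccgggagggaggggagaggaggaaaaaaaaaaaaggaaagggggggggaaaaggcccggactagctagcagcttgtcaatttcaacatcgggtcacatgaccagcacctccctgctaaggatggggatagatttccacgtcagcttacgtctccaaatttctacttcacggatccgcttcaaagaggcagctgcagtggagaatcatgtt
HOXC4 and HOXC5, chr12:54016638-54016937, plus strand, GRCh38.p14: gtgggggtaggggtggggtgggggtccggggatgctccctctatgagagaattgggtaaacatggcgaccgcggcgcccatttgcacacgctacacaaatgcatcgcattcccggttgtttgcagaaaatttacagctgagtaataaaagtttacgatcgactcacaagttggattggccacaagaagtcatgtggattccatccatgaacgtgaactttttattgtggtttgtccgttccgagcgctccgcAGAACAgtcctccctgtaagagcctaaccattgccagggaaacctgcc
The motif began at base 36 of the HOXA11 promoter and at base 253 of the one shared by HOXC4 and HOXC5, and each held it once.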

How the data were processed

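The submitters' processing notes name Bowtie 1.1.2, MACS2 2.1.0.20140616 and the hg19 build. The authors called narrow peaks with MACS2 at a p cutoff of 1e-10, per the file headers, against a control library, whose labels name both input and IgG. The deposited pileup is a coverage signal at each summit. The authors gave −log10 p and −log10 q for each peak, although the header states that q was not calculated. Fold enrichment is the authors' ratio of pileup to local background. These values were used only within a list. Of 11 samples, 3 (vehicle ER, vehicle GR and the control) were not analysed here. One protocol text gives 1 h for the H3K27ac samples where their treatment label gives 8 h, which was followed. Whether libraries pool cultures is not given in the sources used here.

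The receptor libraries had 5206574 to 8508828 usable tags, per the file headers. The control had 3479280 tags for the ER lists, 5735043 for the GR lists and 14002417 for the H3K27ac lists. Overlap of at least 1 bp counted as shared, bases were counted after merging peaks, and domains joined peaks closer than 1 kb (Python 3.11.15, NumPy 2.4.6, SciPy 1.17.1). The overlap code was tested on simulated intervals. Named peaks were the 3 widest vehicle peaks of each window with their counterparts, every receptor peak, and every lost or gained peak where a cluster and list had 5 or fewer, otherwise the 3 of highest −log10 q. No hg19 annotation was used, so the planned lists of HOX cofactors, cluster regulators, noncoding genes and cell type markers were not scored. The windows, members and lists were chosen with earlier results of these data known.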

Additional observations from a re-analysis of the deposited data

How the results depend on the processing

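Under 55 changes of processing (an overlap of 50% of a peak, peaks with −log10 q of at least 20, lists cut to equal length, whole peak widths at window borders, windows extended by 50 kb), 52 values moved by less than their interval or by less than 1.5 times. With −log10 q of at least 20, 100% of 18 vehicle peaks were also called with estradiol. With the windows extended by 50 kb, 2 GR sites of the dexamethasone list and 1 of the combination list came in below HOXB. The 52 included changes that could not move a value. Trimming the lists could not change a receptor count of 0, and equal length left the dexamethasone list as it was. Whole peak widths gave the same spans, since no H3K27ac peak crossed a window border. Of 16 further values, computed with changes chosen after seeing the data, 12 stayed within those limits. Among these 12 were the dexamethasone spans of each cluster, which could not change at equal list length. Of the other 4, joining within 3 kb put HOXB at rank 2 in vehicle and 3 with dexamethasone, and lists of equal length put the HOXD span at 1263 bp in vehicle and 2780 bp with estradiol. No paired analysis was possible because each group held 1 library and the labels carry no replicate numbers. Leaving out a replicate was not possible for the same reason. Depth differed between the H3K27ac lists, from 9034395 usable tags with dexamethasone to 18508574 in vehicle, and its part in the values was not tested.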
